A study of Mus musculus with 6 samples.

Results

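The genes described here are 6 chemokines that draw T cells: Ccl5, Ccl17, Ccl22, Cxcl9, Cxcl10 and Cxcl16. They were followed through every probe set whose platform annotation gave exactly 1 gene symbol that was one of these names, which came to 8 probe sets of 45101 on the array. Cxcl9 and Cxcl16 had 2 probe sets each and the other genes 1. The 2 sorted populations were Ly6G+ DC and Ly6G- DC, with 3 Affymetrix Mouse Genome 430 2.0 arrays each, 1 array per sample. Both came from bone marrow of C57BL/6 mice grown for 6 days with 10 ng/ml of GM-CSF, a growth factor that yields dendritic cells in culture, and no other treatment or genotype was named. Both were sorted as CD11c+ and MHC class II+. They differed in the sort for Ly6G, a surface protein typical of neutrophils. The cells are in vitro products of marrow, and the age and sex of the mice and the number pooled are not given in the labels. Whether the 3 samples of a group are separate cultures is not stated either, so a p-value here covers sample-to-sample spread that may be technical.

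Chemokines are small secreted proteins that guide leukocytes through receptors coupled to G proteins. Ccl17 and Ccl22 act on Ccr4, a receptor of Th2 cells, regulatory T cells and skin-homing T cells, and are products of dendritic cells grown with GM-CSF. Cxcl9 and Cxcl10 act on Cxcr3, found on Th1 cells, CD8 T cells and NK cells, and are induced by interferons. Ccl5 acts on receptors that include Ccr1 and Ccr3. Cxcl16 is made as a membrane protein that binds Cxcr6 and scavenges oxidised lipoprotein, and proteases can shed it.

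Of these genes, Cxcl10 was higher on all 3 Ly6G+ arrays than on any Ly6G- array, at a ratio of mean signals of 1.86. Ccl22 was lower on every Ly6G+ array, at a ratio of 0.592. Ccl5, Ccl17 and Cxcl16 lay far above the 40th percentile of each array in both populations, with overlapping groups. Cxcl9 lay under that percentile on all arrays but 1. None of the 6 probe sets tested passed limma's test across all probe sets (Benjamini-Hochberg adjusted p under 0.05, counted as 0 of 6). The share of all 28254 tested probe sets that passed was 0.0%.

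The promoters of 4 of these genes were in the RefSeq table (build GRCm38.p6), and the 250 bases before each start site are shown for all 4. They set the Cxcr3 ligand with non-overlapping groups beside its dim relative, and likewise the Ccr4 ligands. Capitals mark matches, on either strand, to 4 motifs. The interferon-stimulated response element (ISRE) was taken as GAAA repeated after any 2 bases, and the gamma-activated site (GAS) as TTC followed by any 3 bases before GAA. The STAT6 site was TTC followed by any 4 bases before GAA, and the NF-kB site GGGAA followed by any 3 bases before CC. Each reads 5′ to 3′ in the direction of its gene. The Ccl17 window lies inside that gene's annotated span, chr8:94809380-94812038, so its start site is not the first base of the span. The other windows lie directly before their gene's span. Cxcl10 is at chr5:92348890-92349139 on the minus strand, Cxcl9 at chr5:92328080-92328329 on the minus strand, Ccl22 at chr8:94745434-94745683 on the plus strand and Ccl17 at chr8:94810203-94810452 on the plus strand.
Cxcl10: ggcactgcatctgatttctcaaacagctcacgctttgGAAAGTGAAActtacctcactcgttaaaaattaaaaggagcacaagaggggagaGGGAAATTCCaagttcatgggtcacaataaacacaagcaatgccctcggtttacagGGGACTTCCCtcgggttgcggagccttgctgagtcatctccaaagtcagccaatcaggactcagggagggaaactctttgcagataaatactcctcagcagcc
Cxcl9: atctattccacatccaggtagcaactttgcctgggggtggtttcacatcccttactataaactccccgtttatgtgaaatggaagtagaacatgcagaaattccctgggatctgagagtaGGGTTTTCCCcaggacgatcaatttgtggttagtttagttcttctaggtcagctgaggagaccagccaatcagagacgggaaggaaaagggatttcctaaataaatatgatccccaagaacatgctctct
Ccl22: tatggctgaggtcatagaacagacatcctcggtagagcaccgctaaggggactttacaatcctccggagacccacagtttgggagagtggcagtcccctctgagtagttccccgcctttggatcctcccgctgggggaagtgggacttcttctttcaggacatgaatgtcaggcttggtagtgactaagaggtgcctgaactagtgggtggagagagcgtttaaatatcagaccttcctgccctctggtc
Ccl17: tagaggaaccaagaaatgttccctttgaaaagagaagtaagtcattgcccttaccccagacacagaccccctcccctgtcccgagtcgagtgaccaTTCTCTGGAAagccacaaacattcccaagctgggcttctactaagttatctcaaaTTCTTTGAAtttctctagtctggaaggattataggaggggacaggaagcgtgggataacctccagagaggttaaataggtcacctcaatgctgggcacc

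The Cxcl10 window held 1 ISRE match from -213 to -204 and 2 NF-kB matches, from -159 to -150 and from -103 to -94, counted from the start site. The Cxcl9 window held 1 NF-kB match from -130 to -121. In Ccl17 the STAT6 match ran from -154 to -145 and the GAS match from -99 to -91, and these letters were not in the Ccl22 window. No 2 of these matches overlapped. Among 32851 RefSeq promoter windows of the same length, 2.98% held the ISRE letters, 7.02% the GAS letters, 5.85% the STAT6 letters and 4.94% the NF-kB letters. A match is a description of letters and not evidence of binding.

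All signals are linear MAS5 values as deposited, scaled by the authors to a common trimmed mean per array. Fold changes are differences of log2(signal + 16), as Ly6G+ over Ly6G-, from limma over both groups, with standard errors (SE) or a 95% confidence interval (CI). The pseudocount of 16 makes the change of dim genes look smaller. A probe set was tested when its signal lay above the 40th percentile of its array on at least 3 of the 6 arrays, whatever the group. The 6 tested chemokine probe sets lay above it on all 6 arrays, so none entered through 1 group alone. The 40th percentile ranged from 36.0 to 56.8 on the Ly6G+ arrays and from 54.6 to 61.7 on the Ly6G- arrays. Cxcl9, with both its probe sets, was not tested.

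Technical features of the arrays touch these values. Transcripts spiked in before hybridization (the hybridization controls) had geometric mean signals of 1529 to 2039 on Ly6G+ DC 1, Ly6G+ DC 3 and Ly6G- DC 1, called the low side. On Ly6G+ DC 2, Ly6G- DC 2 and Ly6G- DC 3, called the high side, they were 6688 to 12842. For Actb the 3′ probe set over the 5′ one, a sign of RNA or labelling quality, gave 1.17 to 1.49 in the low-side arrays, whereas the high-side arrays had 3.98 to 6.85. The titles also give arrays numbered 1 another array name than numbers 2 and 3. Values within a side or within an array name rest on few arrays of each group and carry no test. The median log2 fold change of all tested probe sets was -0.06, and 0.23 when each array was scaled to a common median. As a check of the sort, all 12 measured neutrophil markers were higher on the 3 Ly6G+ arrays without overlap, where 4.95% of all genes were, each by its brightest probe set. Of 15 measured dendritic cell markers, 14 passed the filter and 1, Xcr1, did not.

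Cxcl10, the ligand of Cxcr3 that interferons and NF-kB induce, had signals of 281, 294 and 287 for Ly6G+ DC, against 184, 137 and 142 for Ly6G- DC. The Ly6G+ arrays lay close together and all above the highest Ly6G- array. Means were 287 ± 6.52 for Ly6G+ DC and 155 ± 25.9 for Ly6G- DC (SD, n = 3 each). The log2 fold change was 0.84 ± 0.31 (SE, 95% CI 0.16 to 1.52), with an adjusted p of 0.836 by limma and an unadjusted p of 0.0205. Of all tested probe sets, 4.49% were likewise higher with no overlap between groups, and 2.07% had a smaller p. Cxcl10 was the 1 chemokine probe set of 6 with an unadjusted p under 0.05, where 5.62% of all tested probe sets were, 2.75% as higher and 2.87% as lower in Ly6G+ DC. By exact permutation of the arrays, two-sided, p was 0.1, which is the lowest value 3 against 3 can reach. The difference was 0.58 between low-side arrays and 0.99 between high-side arrays. It was 0.57 between the arrays numbered 1 and 0.98 between those numbered 2 and 3, which carry the other array name. Because every Ly6G+ array lay above every Ly6G- array, the sign within any such split was fixed beforehand, and only the sizes are informative. With the side as a block the log2 fold change was 0.79 ± 0.31 (SE, adjusted p of 0.747 by limma). Leaving out single arrays gave 0.77 to 0.96. Relative to the median of all probe sets the value was 0.90.

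Cxcl9, the other Cxcr3 ligand among the 6 genes, was dim in both populations. Probe set 1418652_at had signals of 13.4, 15.9 and 4.45 for Ly6G+ DC, against 9.47, 5.41 and 5.76 for Ly6G- DC. Probe set 1456907_at had 2.30, 28.6 and 28.6 for Ly6G+ DC, against 20.6, 70.5 and 23.0 for Ly6G- DC. Only the 70.5 of Ly6G- DC 2 exceeded the 40th percentile of its array. No fold change is given, because both group means lay under that percentile on both probe sets. A further Cxcr3 ligand, Cxcl11, chosen after its values were seen, had signals of 2.64, 76.7 and 47.2 for Ly6G+ DC and 18.3, 74.1 and 96.0 for Ly6G- DC. Those values overlapped.

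**Figure D1:**
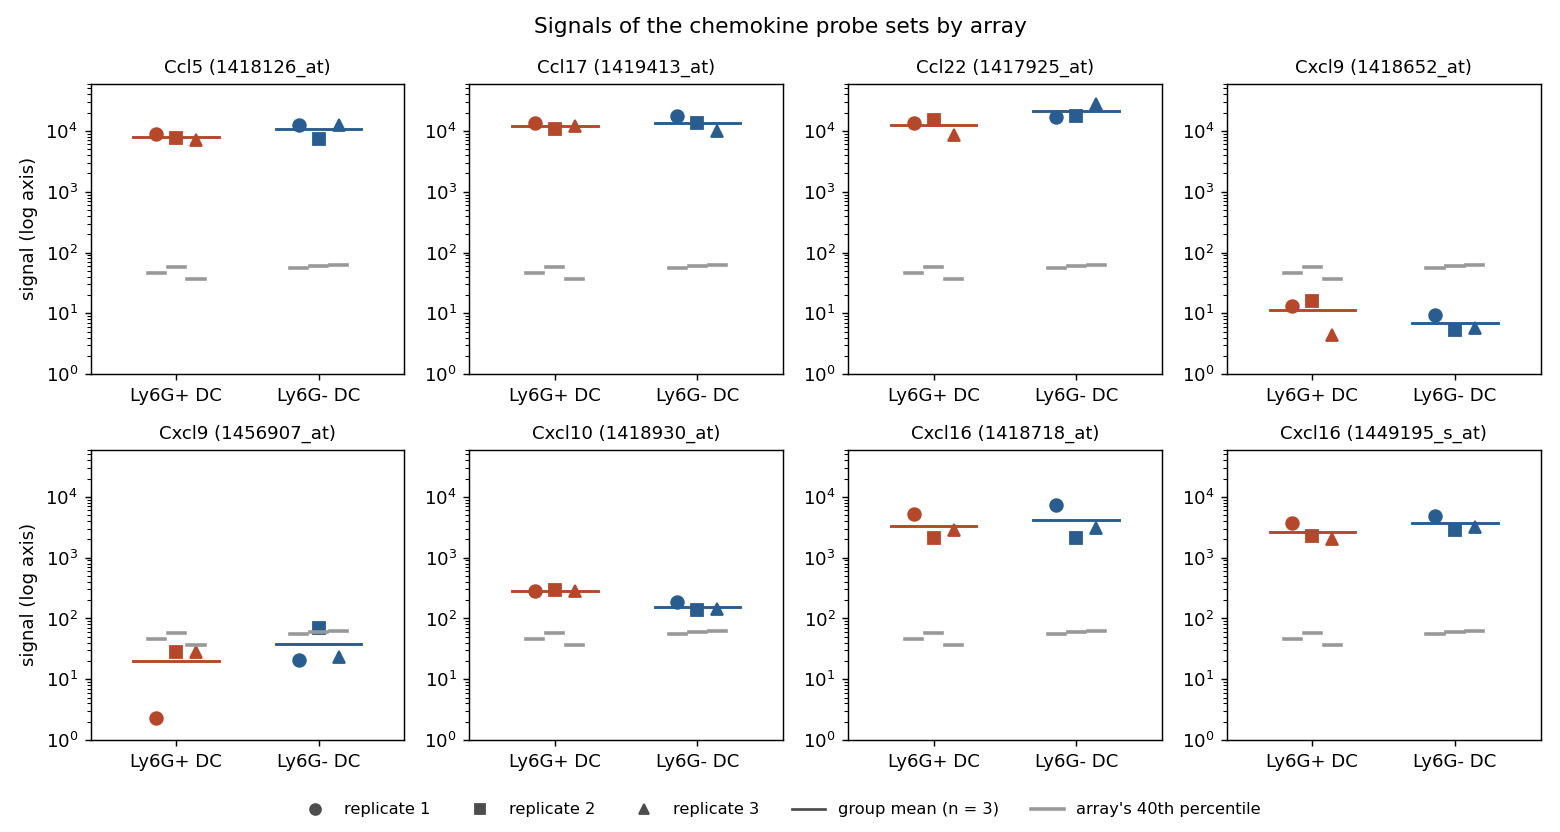
Signal per array (log axis, linear MAS5 signal) for the 8 chemokine probe sets, with Ly6G+ DC on the left and Ly6G- DC on the right of each panel; symbols mark replicates, horizontal lines group means of 3 arrays, and grey ticks each array's 40th percentile. The Cxcl10 signals of 281 to 294 in Ly6G+ DC stand above the 137 to 184 of Ly6G- DC, and both Cxcl9 probe sets lie around or under the grey ticks.

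Ccl22, a ligand of Ccr4, had signals of 13419, 15281 and 8722 for Ly6G+ DC, against 17219, 17875 and 28139 for Ly6G- DC. Every Ly6G+ array lay under every Ly6G- array, and number 3 held both the lowest and the highest value. Means were 12474 ± 3380 for Ly6G+ DC and 21077 ± 6124 for Ly6G- DC (SD, n = 3 each). The log2 fold change was -0.76 ± 0.39 (SE, 95% CI -1.63 to 0.12), with an adjusted p of 0.836 by limma. Of all tested probe sets, 7.24% were likewise lower with no overlap, which is the background for this pattern. The difference was -0.67 between low-side arrays and -0.55 between high-side arrays. It was -0.36 between the arrays numbered 1 and -0.96 between those numbered 2 and 3. As for Cxcl10, the sign within any such split was fixed beforehand, because the groups did not overlap, and only the sizes are informative. With the side as a block the log2 fold change was -0.61 ± 0.27 (SE, adjusted p of 0.747 by limma). With arrays scaled to a common median it was -0.43 ± 0.35 (SE), and without Ly6G+ DC 3 it was -0.52.

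Ccl17, the other ligand of Ccr4, had signals of 13354, 10917 and 11831 for Ly6G+ DC, against 17378, 13345 and 9878 for Ly6G- DC. The groups overlapped, with the highest and the lowest array both Ly6G- DC. The log2 fold change was -0.14 ± 0.36 (SE, 95% CI -0.93 to 0.66), with an adjusted p of 0.951 by limma. The interval runs well past 0 on both sides, so similar levels are not shown. The sign turned to 0.20 with arrays scaled to a common median and to 0.06 without Ly6G- DC 1. In RefSeq's annotation Ccl22, Cx3cl1 and Ccl17 are consecutive protein-coding genes. Cx3cl1, a membrane-bound chemokine whose receptor is on monocytes and cytotoxic lymphocytes, had a log2 fold change of -0.62 ± 0.36 (SE), with signals of 527, 367 and 231 for Ly6G+ DC and 534, 453 and 703 for Ly6G- DC. Its groups overlapped in Ly6G+ DC 1, and its adjusted p was 0.836 by limma.

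Ccl5, which attracts T cells, monocytes and eosinophils, had signals of 8845, 7550 and 7215 for Ly6G+ DC, against 12373, 7436 and 12508 for Ly6G- DC. Of the Ly6G- arrays, 2 lay above all Ly6G+ arrays, while Ly6G- DC 2 lay among them. The log2 fold change was -0.42 ± 0.35 (SE, 95% CI -1.19 to 0.36), with an adjusted p of 0.859 by limma. With arrays scaled to a common median it was -0.09 ± 0.37 (SE), and with the side of the hybridization controls as a block -0.49 ± 0.26 (SE). Ccl5 is also abundant in T and NK cells, so their markers stand beside it. The T cell receptor complex genes Cd3d, Cd3e and Cd3g and the genes Cd2, Cd8b1, Nkg7 and Gzma did not pass the filter on dim signals. The 7 T and NK markers that did summed to signals of 720 to 1430 on the Ly6G+ arrays and 1818 to 2454 on the Ly6G- arrays. Of these, 6 had negative log2 fold changes and 2 lay lower with no overlap: Zap70, a T cell receptor kinase, with -1.42 ± 0.51 and Klrd1, an NK receptor chain, with -0.86 ± 0.33 (SE). Prf1, the pore former of cytotoxic granules, had -0.85 ± 0.44 (SE). Of all genes, 7.86% were lower without overlap. Their part in the Ccl5 values was not tested.

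Cxcl16 was measured by 2 probe sets, and the suffix of the second marks one that can match more than 1 transcript. Probe set 1418718_at had signals of 5136, 2118 and 2847 for Ly6G+ DC, against 7349, 2070 and 3053 for Ly6G- DC. Probe set 1449195_s_at had 3755, 2277 and 2027 for Ly6G+ DC, against 4919, 2891 and 3234 for Ly6G- DC. On both probe sets number 1 was the brightest array of its group, and the groups overlapped. The log2 fold changes were -0.19 ± 0.49 (SE, 95% CI -1.29 to 0.90) and -0.47 ± 0.35 (SE, 95% CI -1.25 to 0.32), with adjusted p-values of 0.949 and 0.852 by limma. With the side of the hybridization controls as a block they were -0.59 ± 0.31 and -0.63 ± 0.28 (SE), and they were -0.94 and -0.83 between low-side arrays, against -0.25 and -0.42 between high-side arrays. The sign of 1418718_at turned to 0.14 with arrays scaled to a common median, to 0.09 without Ly6G+ DC 2 and to 0.32 without Ly6G- DC 1. The other probe set kept its sign in each of these fits.

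**Figure D2:**
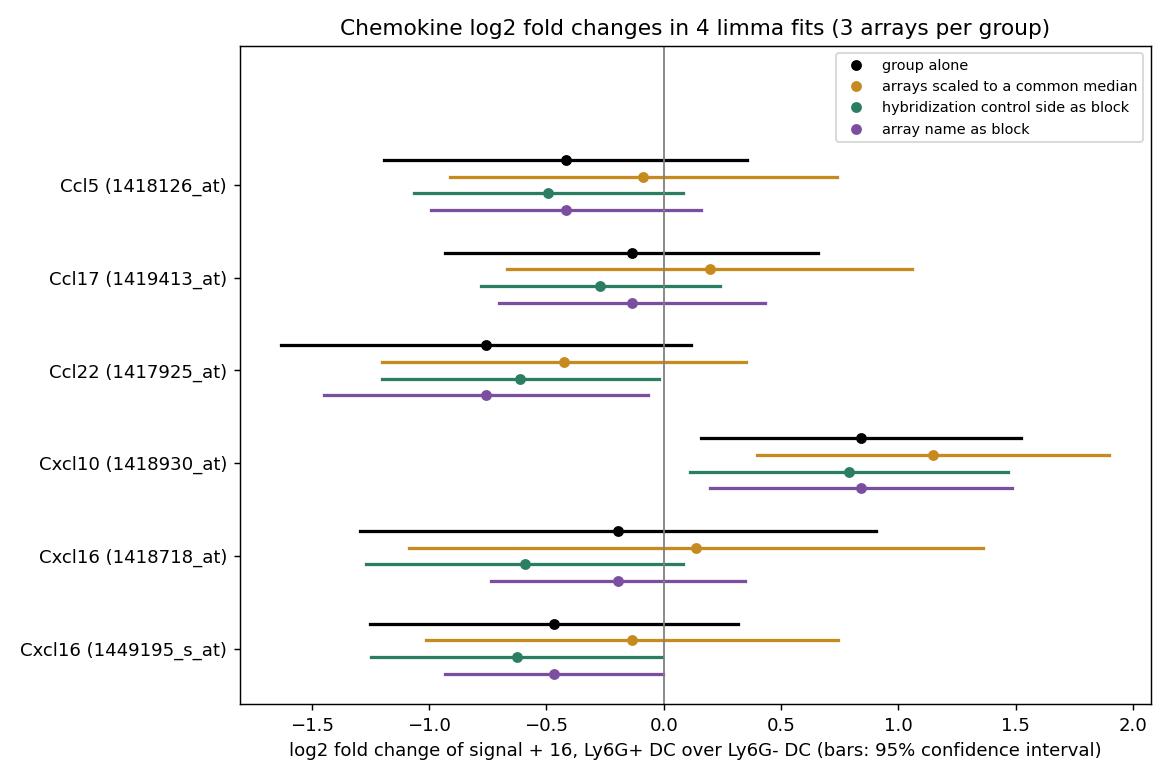
Log2 fold change of signal + 16, Ly6G+ DC over Ly6G- DC, with its 95% confidence interval for the 6 tested chemokine probe sets in 4 limma fits (group alone, arrays scaled to a common median, hybridization control side as a block, array name as a block). The Cxcl10 intervals lie above 0 in all 4 fits, from 0.16 to 1.52 with the group alone. Those of Ccl22 and Cxcl16 (1449195_s_at) lie below 0 with either block and include 0 in the other fits shown. The points for Ccl17 and Cxcl16 (1418718_at) change sign with median scaling.

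Of the 6 tested chemokine probe sets, 1 had a positive and 5 a negative log2 fold change, with a median of -0.31. Of all tested probe sets 45.0% were positive. With arrays scaled to a common median only Ccl5, Ccl22 and Cxcl16 (1449195_s_at) stayed negative. As a bulk measurement of sorted cells, these values cannot tell fewer cells that express a gene from less RNA per cell.

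Among the receptors of these chemokines the groups overlapped for every tested gene by its brightest probe set. Ccr1, a receptor of Ccl5, had signals of 5133, 2158 and 4985 for Ly6G+ DC, against 3224, 1703 and 1024 for Ly6G- DC. Its log2 fold change was 1.09 ± 0.48 (SE) with an adjusted p of 0.836 by limma, and the groups overlapped in Ly6G+ DC 2. A second tested probe set of Ccr1 did not overlap, with 996, 1047 and 1821 for Ly6G+ DC, against 422, 917 and 364 for Ly6G- DC. A share of 4.49% of all tested probe sets was likewise higher without overlap. Cxcr3 had 163 ± 59.8 for Ly6G+ DC and 217 ± 23.8 for Ly6G- DC (SD, n = 3 each), and a log2 fold change of -0.43 ± 0.36 (SE). Cxcr6, the receptor of Cxcl16, averaged 45.7 ± 19.9 for Ly6G+ DC and 61.0 ± 6.00 for Ly6G- DC (SD, n = 3 each) by its tested probe set, near the 40th percentiles of the arrays. Ccr3 and Ccr4 did not pass the filter. The scavenging receptors Ackr1 and Ackr2, which take up chemokines without signalling, had log2 fold changes of 0.09 ± 0.33 and -0.61 ± 0.48 (SE). Over the 5 tested receptors the median was -0.37, against -0.07 for all 13262 genes, and 0 passed in either direction. The list is small: its median ranged from -0.61 (without Ly6G+ DC 2) to 0.09 (60th-percentile filter, 3 genes), with -0.11 under quantile normalization and -0.14 without Ly6G+ DC 3. Among the proteases, Adam10 and Adam17, which shed membrane Cxcl16, had 0.38 ± 0.41 and 0.84 ± 0.43 (SE). Dpp4, which trims the ends of Cxcl10, Ccl5 and Ccl22, had -0.83 ± 0.37 (SE). Its signals were 315, 707 and 554 for Ly6G+ DC and 635, 1007 and 1142 for Ly6G- DC, with an overlap in Ly6G+ DC 2. Of its other tested probe sets, 1 without overlap had 195, 213 and 165 for Ly6G+ DC, against 251, 494 and 398 for Ly6G- DC. A share of 7.24% of all tested probe sets was likewise lower without overlap. Mme, a membrane endopeptidase, did not pass the filter.

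The 3 lists of signalling genes that act on these chemokines had 0 genes past limma's threshold in either direction. Of 16 interferon pathway genes, 7 had positive and 9 negative log2 fold changes, with a median of -0.16. Jak1, a kinase of the interferon receptors, had 0.81 ± 0.36, Ifnar2, a chain of the type I interferon receptor, 0.68 ± 0.45, Jak2, a kinase of the interferon-gamma and GM-CSF receptors, -0.61 ± 0.33, and Tyk2, a kinase of the type I receptor, -0.51 ± 0.30 (SE). Ifng did not pass the filter. With arrays scaled to a common median 13 of the 16 were positive, and without Ly6G- DC 1 the median was 0.02. Of 13 genes of the GM-CSF and IL-4 receptor pathway to Ccl17 and Ccl22, 4 were positive and 9 negative, with a median of -0.20.

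In that pathway Irf4, a transcription factor that drives Ccl17 and Ccl22 downstream of GM-CSF and IL-4, had signals of 1787, 1850 and 1268 for Ly6G+ DC, against 2727, 2479 and 2519 for Ly6G- DC. Its groups did not overlap, and the log2 fold change was -0.67 ± 0.29 (SE, adjusted p of 0.836 by limma). Stat5a, which relays the GM-CSF signal, had signals of 941, 723 and 620 for Ly6G+ DC and 1639, 1159 and 1517 for Ly6G- DC, also without overlap, and -0.91 ± 0.30 (SE). Lower genes without overlap made up 7.86% of all genes, by the brightest probe set of each. Il13ra1, a receptor chain for IL-4 and IL-13, had 0.71 ± 0.39 (SE). The GM-CSF receptor chain Csf2rb had -0.48 ± 0.52 and its relative Csf2rb2 -0.23 ± 0.34 (SE), the second turning to 0.11 with arrays scaled to a common median. With that scaling 8 of the 13 genes were positive, and 7 were without Ly6G- DC 1.

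Of 11 NF-kB and related genes, 2 were positive and 9 negative, with a median of -0.30, and with arrays scaled to a common median 6 were positive. Irf8, a transcription factor of dendritic cells, had signals of 2903, 3198 and 2453 for Ly6G+ DC, against 5751, 4088 and 8023 for Ly6G- DC, and -1.01 ± 0.34 (SE). It also counts among the dendritic cell markers and was the 1 gene of these 11 whose groups did not overlap. That is near the 7.86% of all genes that were lower without overlap. The subunits Relb and Rela had -0.51 ± 0.33 and -0.43 ± 0.32, and the inhibitor Nfkbia -0.70 ± 0.57 (SE). In the interferon list 7 genes were positive and 9 negative, and in the NF-kB list 2 and 9. The part of either list in the Cxcl10 values was not tested.

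Of 11 inflammatory and neutrophil-attracting chemokines, all 11 had positive log2 fold changes, with a median of 0.75. That median was 0.39 without Ly6G- DC 3, 0.50 without Ly6G+ DC 3 and 0.49 with the side as a block, and without Ly6G- DC 1 the positive genes were 10 of 11. With all arrays, 3 lay higher without overlap, where 4.95% of all genes did. These were Cxcl3 and Cxcl2, ligands of Cxcr2, with 2.16 ± 0.45 and 1.57 ± 0.38, and Ccl3, a ligand of Ccr1, with 1.37 ± 0.38 (SE). The monocyte attractants Ccl6 and Ccl9 had 0.23 ± 0.36 and 0.11 ± 0.35 (SE). Of 10 other lymphocyte-attracting chemokines 2 were positive and 8 negative, with a median of -0.44. That median was -0.17 (4 positive, 6 negative) with arrays scaled to a common median, -0.14 with the side as a block, and -0.20 without Ly6G+ DC 3. Cxcl14 had 62.9 ± 27.6 for Ly6G+ DC and 126 ± 33.4 for Ly6G- DC (SD, n = 3 each), and was the 1 gene of the 10 lower without overlap, near the 7.86% of all genes that were. Cxcl12, the ligand of Cxcr4, had overlapping signals of 96.5, 75.4 and 2.43 for Ly6G+ DC, against 222, 141 and 63.9 for Ly6G- DC, and Ccl8 had -0.08 ± 0.50 (SE). No gene of either list passed limma's test (adjusted p of 0.698 or above).

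**Figure D3:**
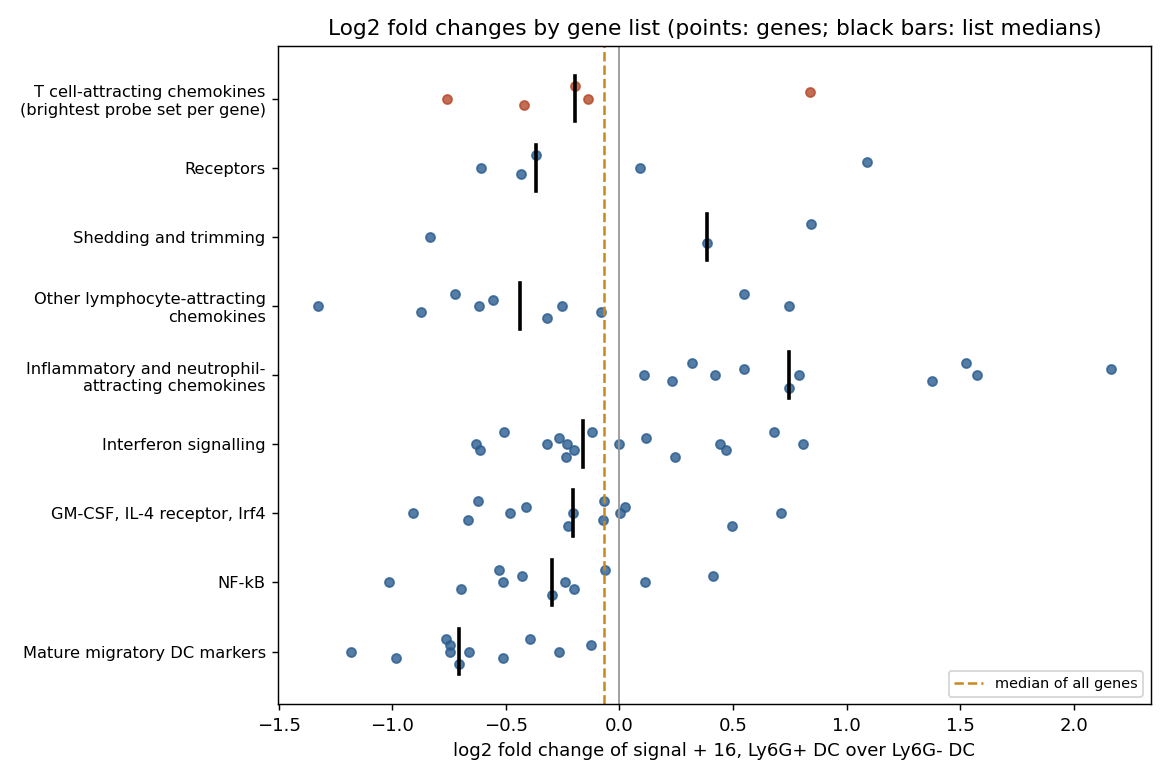
Log2 fold change of signal + 16, Ly6G+ DC over Ly6G- DC, for the 5 tested T cell-attracting chemokines (brightest probe set per gene, top row) and for the genes of 8 related lists; points are genes, black bars list medians and the dashed line the median of all genes at -0.07. Cxcl10 at 0.84 stands apart from the other 4 chemokines, all at negative values, and all 11 inflammatory chemokines lie above 0.

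Summed markers of mature migratory dendritic cells, neutrophils and monocytes, which the sort could hold, did not overlap between the groups. All 11 measured markers of mature migratory dendritic cells, the state in which Ccl17 and Ccl22 are high, had negative log2 fold changes, with a median of -0.71. They summed to signals of 28855 to 48340 on the Ly6G+ arrays and 49069 to 98390 on the Ly6G- arrays. Ccr7, which guides cells to lymph nodes, had -0.98 ± 0.37, Cd83 -0.74 ± 0.33, Tmem176b -0.76 ± 0.35 and Fscn1, which bundles actin, -1.18 ± 0.63 (SE). Of the 11 markers, 4 lay lower without overlap, where 7.86% of all genes did. With arrays scaled to a common median, 9 of the 11 were negative, with a median of -0.38. The 12 neutrophil markers summed to 69513 to 94363 on the Ly6G+ arrays and 2345 to 13407 on the Ly6G- arrays, with a median log2 fold change of 3.40. The 5 monocyte markers were all positive, with a median of 1.23, or 0.56 without Ly6G- DC 3, and sums of 13152 to 17642 on the Ly6G+ arrays and 4095 to 12610 on the Ly6G- arrays. Their part in the values of Ccl22, Cxcl10 and the other chemokines was not tested.

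The summed signals of the dendritic cell, macrophage, platelet and B cell markers overlapped between the groups. Of 14 dendritic cell markers, which include genes of the sort, 11 were negative and 7 lay lower without overlap, where 7.86% of all genes did. Their median was -0.66, or -0.34 with arrays scaled to a common median, with sums of 83990 to 156816 on the Ly6G+ arrays and 115840 to 272155 on the Ly6G- arrays. Of 11 macrophage markers 7 were positive, with a median of 0.19 (0.10 to 0.52 over the alternatives) and sums of 34705 to 45579 on the Ly6G+ arrays and 30185 to 57109 on the Ly6G- arrays. The medians of the 5 platelet markers, -0.08, and of the 5 B cell markers, -0.18, changed sign between alternatives. No gene of any marker list passed limma's test with the group alone.

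The genes whose log2 signals ran most like each chemokine over the 6 arrays are given as a description, with Pearson's r among 13261 other genes. Cxcl10 ran closest to Dynlt1f (r of 0.996), Gpr84 (0.994) and Tmem135 (0.986). Dynlt1f passed the filter through its Ly6G+ arrays alone, with signals of 65.6, 84.9 and 85.9 for Ly6G+ DC, against 23.0, 6.25 and 7.65 for Ly6G- DC. Gpr84, a receptor for medium-chain fatty acids, had signals of 519, 519 and 583 for Ly6G+ DC, against 293, 177 and 179 for Ly6G- DC. Ccl22 ran closest to Cntnap4 (0.990), Ace (0.988) and Slco1b2 (0.987), and Ccl17 to Setd2 (0.999), 1700013D24Rik (0.995) and Plet1 (0.982). Ccl5 ran closest to Htra1 (0.980), Spire2 (0.979) and Col3a1 (0.978), and Cxcl16 to Snd1 (0.995), Tmem186 (0.992) and S100pbp (0.991). Col3a1, 1700013D24Rik and Slco1b2 were dim, above the 40th percentile on 4, 3 and 3 of the 6 arrays. These r values are the highest of many genes over 6 arrays and carry no test. The arrays share the side of the hybridization controls and the array name as well as the sorted group.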

How the data were processed

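Per the labels, 200 ng of total RNA per sample was labelled from its 3′ end and hybridized to 6 arrays, so damaged RNA can change probe sets unequally. The deposited intensities are linear MAS5 values that the authors scaled to a mean of 250 on each array, found from the values by trimming 2% at each end. Tools in the submitters' processing notes were GCOS, MAS5 and Affymetrix Expression Console 2.0; their settings are not given in the sources used here. Of 45101 probe sets, 64 controls were left out, and 28254 of the other 45037 passed the filter. The test was limma (version 3.58.1, R 4.3.3) with eBayes and its mean-variance trend on the log2 scale, with Benjamini-Hochberg adjustment over all probe sets kept. Its code was run on simulated data with independent noise of a common spread and large shifts. Those data lacked the technical features of these arrays, so that run does not show how well the test works here. Arrays have no read depth, so precision rests on their number. Blocks, scalings, filters and left-out arrays were tried as alternatives.

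The chemokines and the 15 gene lists (7 of pathways, 8 of cell type markers) were chosen with earlier results of these data known. List values use each gene's brightest probe set that passed. Named were every chemokine probe set, every receptor and protease, and of each other list up to 4 genes past the threshold, or else the 3 with the smallest p and the 2 brightest; the neutrophil, monocyte, macrophage, dendritic cell, platelet and B cell lists are given as summaries. Where both groups averaged under the 40th percentile, no fold is given. Promoter sequences are RefSeq's, searched before the start site only.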

Additional observations from a re-analysis of the deposited data

How the results depend on the processing

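None of the 6 tested chemokine probe sets passed limma's threshold with the group alone or in any of the 19 alternatives that held it. These were 2 other scalings (quantiles, a common median), 2 pseudocounts (1 and 64), 2 filters (none, and the 60th percentile) and 2 variance models. The rest were 3 blocks, 2 ways of giving 1 value per gene, and each array left out. In those 2 ways Cxcl16 (1449195_s_at) had no fit of its own. Cxcl10 stayed positive, from 0.69 to 1.15, and Ccl22 negative, from -0.92 to -0.43. Because their groups did not overlap, only the 2 other scalings could have turned these signs. With quantiles and a common median Cxcl10 had 0.91 and 1.15, and Ccl22 -0.70 and -0.43. Ccl17 turned to 0.20 and Cxcl16 (1418718_at) to 0.14 with a common median, where the median of all probe sets was 0.23 in place of -0.06. Leaving out single arrays gave -0.34 to 0.063 for Ccl17 and -0.59 to 0.32 for that Cxcl16 probe set. Ccl8 turned to 0.11 with quantile normalization, 0.21 with a common median and 0.30 with the hybridization control block. Csf2rb2 turned to 0.11 with a common median and Csf2rb to 0.048 as the mean of its probe sets. Leaving out single arrays gave -0.041 to 0.24 for Ackr1, -0.018 to 0.23 for Ccl9, -0.59 to 0.30 for Ccl8 and -1.07 to 0.12 for Cxcl11. The cause of these changes of sign was otherwise not tested.

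Over all probe sets the count past the threshold was 0 with the group alone, where 1589 had an unadjusted p under 0.05. It was 19 with the replicate block and 21 when the array name was the block, and 0 to 24 when single arrays were left out, 24 of them without Ly6G- DC 1. Of 134 genes on the lists, 9 passed with the replicate block and 9 when the array name was the block, 1 as the mean of a gene's probe sets, and 0 to 8 without single arrays. All of these were neutrophil markers. The replicate numbers did not meet the rule for paired samples: deviations from the group means correlated at 0.52, 0.26 and -0.04 for numbers 1, 2 and 3, and Ly6G+ DC 2 correlated better with Ly6G- DC 3 (0.32). With the replicate block Cxcl10 had 0.84 ± 0.31 and Ccl22 -0.76 ± 0.33 (SE), with adjusted p-values of 0.42 and 0.467 by limma. Dim probe sets limit what can be said of Cxcl9, Cxcl11 and most receptors.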

Other observations

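Between arrays of the same number, which the labels do not tie to a culture, the log2 difference of Cxcl10 was 0.57, 1.02 and 0.94 for numbers 1, 2 and 3. For Ccl22 it was -0.36, -0.23 and -1.69, so number 3 carried most of its mean difference. The signs for Cxcl10 and Ccl22 were fixed beforehand, because their groups did not overlap. For Ccl5 the differences were -0.48, 0.02 and -0.79, and for Ccl17 -0.38, -0.29 and 0.26. For Cxcl16 they were -0.52, 0.03 and -0.10 by probe set 1418718_at and -0.39, -0.34 and -0.67 by 1449195_s_at.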
